A study of Mus musculus with 2 samples.

Results

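Radial glia are the neural stem cells of the developing cortex, and the transcript levels of 10 genes that mark them were read in sorted neurons and sorted progenitors of the embryonic mouse cortex. The genes are Tnc, Mfge8, Ednrb, Ptprz1, Prom1, Ttyh1, Slc1a3, Fabp7, Ddah1 and Hopx. They were chosen by symbol as radial glia markers that are not transcription factors, including markers of basal radial glia, and all 10 were found among the 20373 genes listed in both tables. Tnc and Mfge8 encode secreted proteins, and Ednrb, Ptprz1, Prom1, Ttyh1 and Slc1a3 encode membrane proteins. Fabp7 and Ddah1 encode cytoplasmic proteins and Hopx a small homeodomain protein that does not bind DNA, so the group is wider than membrane and secreted products.

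Radial glia span the cortical wall, with an apical endfoot at the ventricle and a basal fibre reaching the pia. They divide to renew themselves and to produce intermediate progenitors and neurons, which migrate along the fibres. Basal radial glia have left the ventricular surface, are rare in mouse and common in primates, and in human cortex are marked by HOPX, TNC and PTPRZ1 among others.

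The data are 1 RNA sequencing library of neurons and 1 of neural progenitor cells (NPCs), both from embryonic day 15.5. Embryos of both groups came from heterozygous Nestin-GFP mice crossed with homozygous DCX-mRFP mice and carried both reporters. Cells with both colours were collected by sorting as neurons and green cells as NPCs, so the gates rest on Nestin and doublecortin regulatory sequences and not on any of the 10 genes. The strain, the sex and the number of embryos in each library are not given in the labels. Over the listed genes, 23312054 reads were recovered from the neuron library and 26346226 from the NPC library.

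Levels are in CPM, counts per 1000000 after the scaling between libraries that the authors deposited. In these units 1 CPM is 22.8 reads in the neuron library and 26.97 reads in the NPC library. Differences are given as the plain ratio of the CPM values, with an exact 95% Clopper-Pearson interval from the reads, and as log2((neuron CPM + 1)/(NPC CPM + 1)), called the log2 ratio, which is nearer 0 for low genes. The intervals cover counting error only, because the reads carry no molecular tags and each population has a single library. With a single library on each side no p-value can be given, and every difference is one between these libraries. In sorted populations of many cells, fewer cells of a type and less RNA per cell cannot be told apart.

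The reporter genes were read first. Nes, the progenitor intermediate filament, was at 189.5 CPM in neurons and 408.5 CPM in NPCs, 2.16-fold higher in NPCs (2.08 to 2.23). Dcx, whose product binds microtubules in migrating neurons, reached 3294 CPM in neurons and 2522 CPM in NPCs, 1.31-fold higher in neurons (1.29 to 1.32). Both genes differed in the direction of the labels, and each was abundant in both libraries.

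Transcripts of 9 of the 10 radial glia markers were at least 2-fold lower in neurons than in NPCs, on the log2 ratio scale, and Ptprz1 alone was higher in neurons. A gene was tested where either library reached 1 CPM. Of the 12693 tested genes, 6.73% were higher in NPCs by 2-fold or more and 3.85% in neurons by as much, while 50.7% were higher in NPCs and 49.3% in neurons by any amount. All 10 members passed that filter. Their median log2 ratio was -1.46, which is 2.74-fold higher in NPCs, beside a median of -0.0049 over all tested genes. The members were chosen as progenitor markers with earlier results of these data known, so the count describes them and tests nothing.

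**Figure D1:**
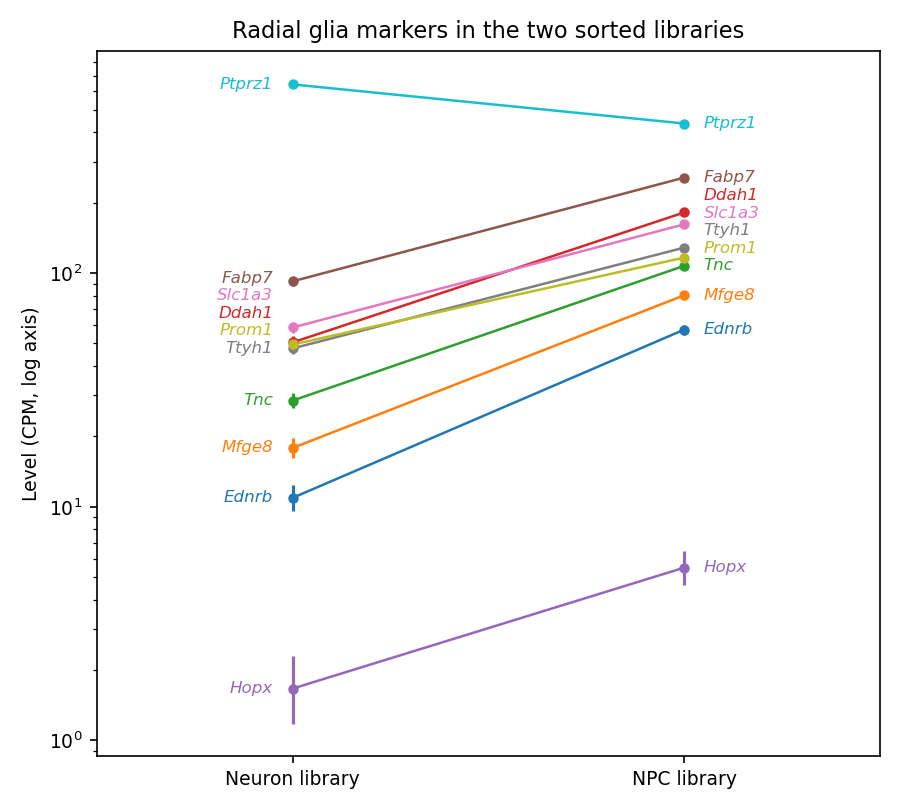
Levels of the 10 radial glia markers in CPM (log axis) in the neuron library (left) and the NPC library (right), with lines joining the values of a gene and bars for 95% counting intervals. The lines of 9 genes lie lower in neurons, and that of Ptprz1 lies higher, at 641.4 CPM in neurons and 436.4 CPM in NPCs.

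Promoter sequence was set beside these levels because 9 of the members differed in 1 direction and Ptprz1 in the other. RefSeq promoter windows of build GRCm38.p6, from 250 bases before to 50 bases after each start, were matched by symbol for all 10 members, with 13 starts. The submitters' processing notes name build mm9 and the deposited tables hold no coordinates, so the positions below belong to the RefSeq table only. Shown 5′ to 3′ are the 250 bases before the start for the members with the lowest ratios (Ednrb, Mfge8 and Tnc, the last at the start whose window holds 3 different motifs), for Fabp7, which had the highest level per length, and for Ptprz1. Capitals mark matches to the searched motifs on either strand.
Ednrb, chr14:103843702-103843951, minus strand: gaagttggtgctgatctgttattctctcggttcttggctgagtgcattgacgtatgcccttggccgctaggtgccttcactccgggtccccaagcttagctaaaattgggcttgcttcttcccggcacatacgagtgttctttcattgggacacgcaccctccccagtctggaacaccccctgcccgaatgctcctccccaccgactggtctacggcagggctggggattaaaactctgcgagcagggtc
Mfge8, chr7:79149061-79149310, minus strand: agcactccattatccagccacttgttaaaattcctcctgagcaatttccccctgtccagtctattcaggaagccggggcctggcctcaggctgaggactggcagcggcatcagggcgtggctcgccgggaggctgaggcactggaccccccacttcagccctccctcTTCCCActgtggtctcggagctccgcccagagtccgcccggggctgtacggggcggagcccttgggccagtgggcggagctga
Tnc, chr4:64046937-64047186, minus strand: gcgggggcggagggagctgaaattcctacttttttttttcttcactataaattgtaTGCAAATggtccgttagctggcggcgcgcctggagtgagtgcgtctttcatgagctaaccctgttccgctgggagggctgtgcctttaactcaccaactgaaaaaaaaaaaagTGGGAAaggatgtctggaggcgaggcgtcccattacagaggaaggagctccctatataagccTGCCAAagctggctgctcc
Fabp7, chr10:57784673-57784922, plus strand: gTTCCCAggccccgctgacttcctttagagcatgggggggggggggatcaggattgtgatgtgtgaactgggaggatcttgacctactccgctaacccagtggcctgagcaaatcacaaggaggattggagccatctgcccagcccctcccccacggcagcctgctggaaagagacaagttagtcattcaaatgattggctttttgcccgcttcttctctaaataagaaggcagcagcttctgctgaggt
Ptprz1, chr6:22875252-22875501, plus strand: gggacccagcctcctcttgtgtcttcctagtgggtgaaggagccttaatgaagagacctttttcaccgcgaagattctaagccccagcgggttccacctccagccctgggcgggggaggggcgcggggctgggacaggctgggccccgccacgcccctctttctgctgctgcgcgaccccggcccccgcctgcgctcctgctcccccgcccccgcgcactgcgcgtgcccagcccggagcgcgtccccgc

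The motifs were TGGGAA for RBPJ, the DNA-binding factor of Notch signalling, ACAATG for SOX factors, TTGGCA for an NFI half-site and TGCAAAT for 7 of the 8 letters of the POU octamer, with no overlap between the matches found. TGGGAA was found in the windows of 4 of the 10 members and at 5 of their 13 starts, beside 25.6% of all 32851 windows of this length. These members were Fabp7, Mfge8, Prom1 and Tnc. The windows at the 2 starts of Tnc overlap and share a match of TGGGAA. The shares given count windows, and some members have more than 1 window. ACAATG was found in 0 members, beside 12.6% of all windows. Tnc held the single match of TTGGCA (14.1% of all windows) and those of TGCAAAT (4.02% of all windows), at 1 start and at 2 overlapping starts in that order. The windows of Ednrb and Ptprz1, at the ends of the range of ratios, held no match, and neither did those of Slc1a3, Hopx, Ddah1 and Ttyh1. A match describes the letters of a window and is not evidence of a bound site, and the windows without a match say only that these letters are not there.

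The secreted markers were among the most unequal. Tnc encodes tenascin C, an extracellular matrix glycoprotein of germinal zones. It was at 28.5 CPM in neurons (649 reads) and 107.3 CPM in NPCs (2895 reads), 3.77-fold higher in NPCs (3.46 to 4.11). Mfge8, whose product bridges phosphatidylserine on cell surfaces to alpha-v integrins, was at 17.9 CPM in neurons (407 reads) and 80.3 CPM in NPCs (2166 reads). That is 4.50-fold higher in NPCs (4.04 to 5.01), with a log2 ratio of -2.11. The counting intervals of Tnc and Mfge8 overlapped, so their order was not resolved at this depth.

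The membrane proteins covered the whole range of the group. Ednrb encodes endothelin receptor B, and its level was 10.9 CPM in neurons (249 reads) and 57.2 CPM in NPCs (1544 reads). At 5.24-fold higher in NPCs (4.58 to 6.01) and a log2 ratio of -2.29 it was the most unequal member. Prom1, prominin 1, marks the apical membrane protrusions of neuroepithelial cells. It was at 49.5 CPM in neurons (1127 reads) and 116.4 CPM in NPCs (3141 reads), 2.35-fold higher in NPCs (2.20 to 2.52), the smallest of the differences toward NPCs. Its interval overlapped that of Nes.

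Ttyh1, a membrane protein of the tweety family, was at 47.6 CPM in neurons (1085 reads) and 128.4 CPM in NPCs (3464 reads), 2.70-fold higher in NPCs (2.52 to 2.89). Slc1a3 encodes GLAST, the transporter that clears glutamate into glial cells. It was at 58.5 CPM in neurons (1333 reads) and 161.6 CPM in NPCs (4359 reads), 2.76-fold higher in NPCs (2.60 to 2.94). The intervals of Ttyh1 and Slc1a3 overlapped for the most part.

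Ptprz1 was the exception. It encodes a receptor tyrosine phosphatase that carries chondroitin sulphate chains and is also made in a secreted form, phosphacan, and gene-level values do not separate these forms. Ptprz1 was at 641.4 CPM in neurons (14612 reads) and 436.4 CPM in NPCs (11772 reads), 1.47-fold higher in neurons (1.43 to 1.51), with a log2 ratio of 0.55. This lies within 2-fold, as most genes did, and 88.6% of the tested genes had a log2 ratio at or below it. Its interval lay above that of Dcx, the reporter gene of the neuron gate.

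Among the intracellular markers, Fabp7 encodes the brain lipid-binding protein, a fatty acid carrier of radial glia. It was at 92.2 CPM in neurons (2101 reads) and 256.1 CPM in NPCs (6907 reads), 2.78-fold higher in NPCs (2.64 to 2.92). Ddah1 encodes an enzyme that degrades asymmetric dimethylarginine, an inhibitor of nitric oxide synthases. Its level was 50.5 CPM in neurons (1151 reads) and 181.6 CPM in NPCs (4899 reads), 3.60-fold higher in NPCs (3.37 to 3.84). The interval of Ddah1 lay apart from that of Fabp7.

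Hopx had the fewest reads of the members, with 38 reads (1.67 CPM) in neurons and 148 reads (5.49 CPM) in NPCs. The ratio was 3.29-fold higher in NPCs, with a wide interval of 2.29 to 4.83 that overlapped those of all members except Ptprz1. Its log2 ratio of -1.28 is held nearer to 0 by the added 1 CPM. With 5 CPM added in place of 1 it was -0.65. At that setting 8 members were at least 2-fold higher in NPCs, as were 399 of the 12693 tested genes.

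In order of the plain ratio the members ran Ednrb, Mfge8, Tnc, Ddah1, Hopx, Fabp7, Slc1a3, Ttyh1, Prom1 and Ptprz1. Intervals overlapped in 8 of the 9 neighbouring pairs, and the pair of Prom1 and Ptprz1 was the only one apart. Beyond neighbours, the intervals of Ednrb, Mfge8, Tnc and Ddah1 did not reach those of Fabp7, Slc1a3, Ttyh1 and Prom1. Set beside Nes, 8 members had intervals wholly below that of Nes, the interval of Prom1 overlapped it, and that of Ptprz1 lay above it.

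**Figure D2:**
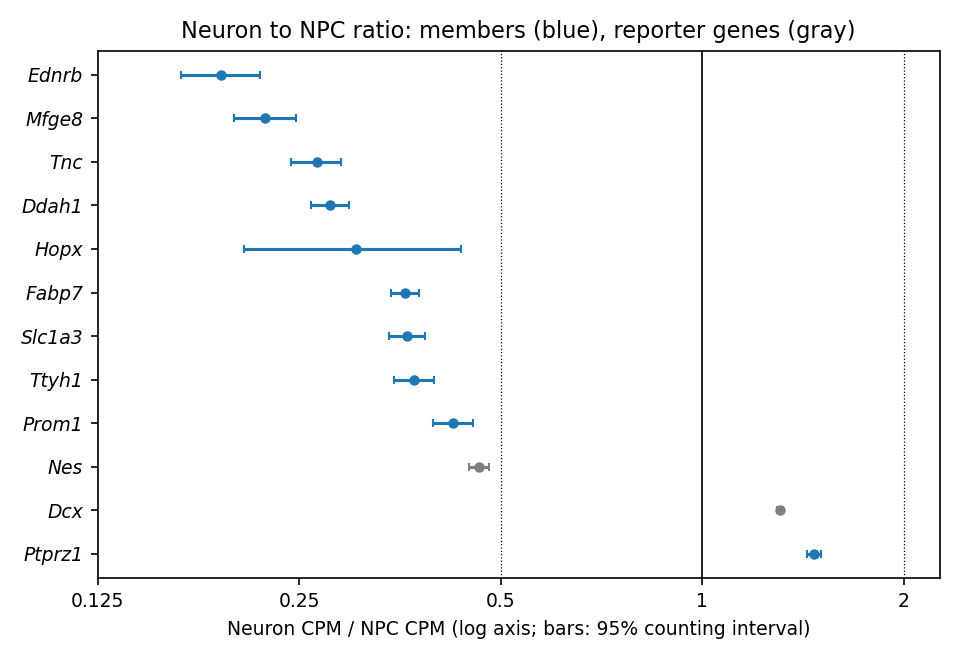
Ratio of neuron CPM to NPC CPM (log axis) for the 10 markers in blue and the reporter genes Nes and Dcx in gray, with 95% counting intervals as bars and dotted lines at 2-fold. The ratios run from 0.191 for Ednrb to 1.47 for Ptprz1, and only Ptprz1 and Dcx lie to the right of 1.

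Each of the 9 members lower in neurons was still detected there. For Ptprz1 the neuron value was 147.0% of the NPC value. It was 19.1% of the NPC value for Ednrb (16.6 to 21.8) and 22.2% for Mfge8 (19.96 to 24.7). For Fabp7, Slc1a3 and Ttyh1 it was 36.0%, 36.2% and 37.1%, and for Prom1 42.5% (39.7 to 45.5). Hopx stood at 30.4% (20.7 to 43.7), from 38 reads in neurons. Nes stood at 46.4% (44.8 to 48.1). No member was at 0 in either library.

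Summed over the 10 members the level was 998.7 CPM in neurons and 1531 CPM in NPCs, 1.53-fold higher in NPCs (1.51 to 1.56). Without Ptprz1 the sums were 357.3 CPM in neurons and 1095 CPM in NPCs, 3.06-fold higher in NPCs (2.99 to 3.14). Ptprz1 made up 64.2% of the summed CPM in neurons and 28.5% in NPCs, while Fabp7 made up 9.23% in neurons and 16.7% in NPCs. These shares depend on transcript length as well as on transcript number.

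**Figure D3:**
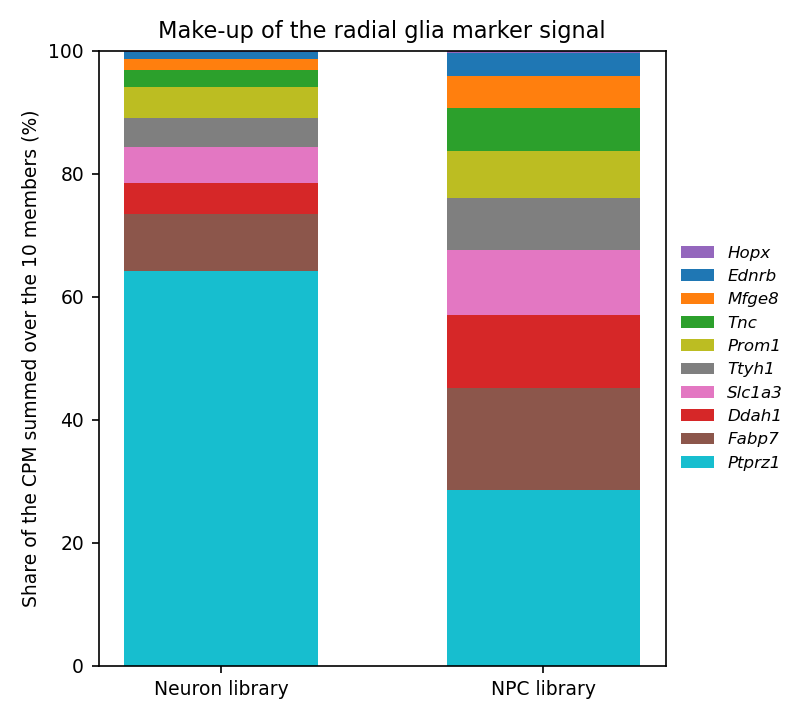
Share of the CPM summed over the 10 markers that each gene took (percent) in the neuron library (left bar) and the NPC library (right bar). Ptprz1, at the foot of each bar, took 64.2% in neurons and 28.5% in NPCs.

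For an order of levels among the members, values were divided by length, as CPM per kilobase of annotated exon (GENCODE M21 basic set, which may differ from the annotation used for counting). On this scale Fabp7 was first in both libraries, at 73.8 CPM per kilobase in neurons and 204.9 in NPCs. Ptprz1 was the second in neurons, at 64.1 CPM per kilobase, and the third in NPCs, at 43.6, behind Ddah1 at 47.9. Mfge8 was the seventh in neurons, at 8.40 CPM per kilobase, and the fourth in NPCs, at 37.8, where its counting interval overlapped that of Slc1a3 (36.7). In neurons the intervals of Ddah1 (13.3 CPM per kilobase) and Slc1a3 (13.3) overlapped, as did those of Ttyh1 (10.8) and Prom1 (10.2). In NPCs those of Tnc (13.8) and Ednrb (13.4) overlapped as well. Hopx was the last in both libraries, at 1.10 CPM per kilobase in neurons and 3.62 in NPCs. All other neighbours in either order were apart beyond counting error. The intervals leave out any error of the lengths, so the order holds for these lengths only.

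Most members ranked near the end of the distribution of all tested genes that is higher in NPCs. Ednrb and Mfge8 stood at ranks 36 and 49 of 12693 from that end, Tnc and Ddah1 at 88 and 108, and Fabp7, Slc1a3 and Ttyh1 between 318 and 356. Hopx and Prom1 stood at 497 and 579. Ptprz1 stood at rank 11247. The ranks are by log2 ratio.

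**Figure D4:**
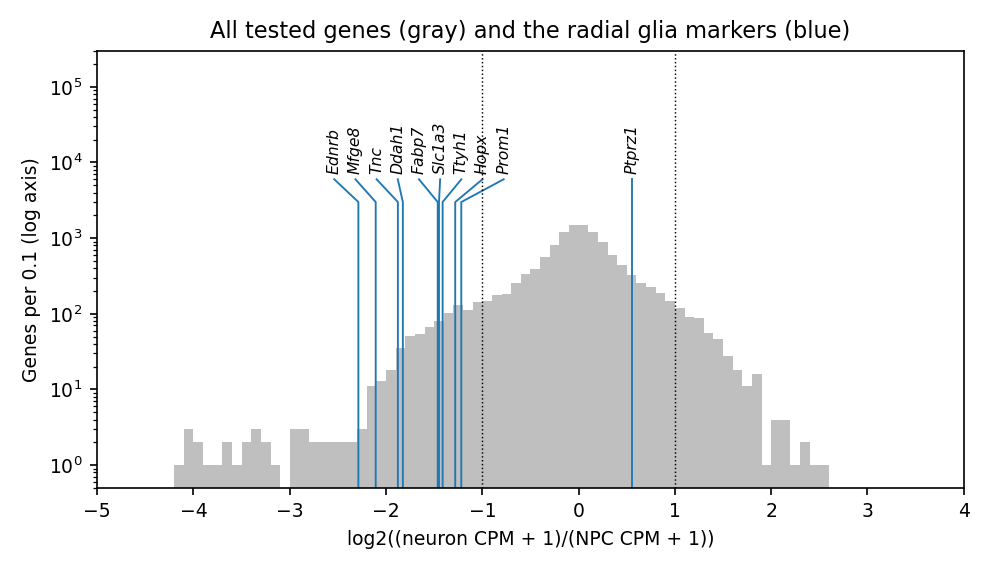
Distribution of log2((neuron CPM + 1)/(NPC CPM + 1)) over the 12693 tested genes, as genes per bin on a log axis, with blue lines at the 10 radial glia markers and dotted lines at 2-fold. The markers other than Ptprz1 lie between -2.29 and -1.22, and Ptprz1 lies at 0.55.

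The genes whose levels in both libraries were nearest to those of the extreme members were found by distance over log2(CPM + 1), which with 2 libraries is a likeness in level and ratio only. For Ednrb they were Yap1, a transcriptional effector of the Hippo pathway (13.4 CPM in neurons and 52.0 CPM in NPCs), the focal adhesion gene Tns1 (14.05 and 55.8 CPM in the same order) and the phospholipase gene Plce1 (13.8 and 64.99 CPM in that order). For Ptprz1 they included Hn1 (602.1 CPM in neurons and 430.2 CPM in NPCs) and Nfix, a nuclear factor I gene (615.6 and 464.9 CPM in that order). The distances of these genes were 0.31 to 0.36 for Ednrb and 0.093 to 0.11 for Ptprz1.

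Related genes of the same families did not all share the direction of the members. Of 8 other fatty acid-binding protein genes, 6 had 0 reads in both libraries. The others were higher in neurons, Fabp5 at 306.8 CPM in neurons and 217.1 CPM in NPCs (1.41-fold, 1.36 to 1.46) and Fabp3 at 5.53 CPM in neurons and 1.78 CPM in NPCs (3.11-fold, 2.21 to 4.43). Fabp7, in contrast, was 2.78-fold higher in NPCs. Of the 6 relatives of Slc1a3, 5 passed the filter, with 1 of them 2-fold or more toward neurons and 0 toward NPCs (median log2 ratio -0.036). Slc1a1, the glutamate transporter of neurons, was at 45.9 CPM in neurons and 17.9 CPM in NPCs (2.57-fold higher in neurons, 2.30 to 2.87). Slc1a2, the main glutamate transporter of mature astrocytes, was at 28.3 CPM in neurons and 34.6 CPM in NPCs (1.22-fold higher in NPCs, 1.11 to 1.36). Slc1a5, a neutral amino acid transporter, was 1.71-fold higher in NPCs (1.46 to 2.01). Slc1a6 had 27 reads in neurons and 15 in NPCs.

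Of the tweety relatives, Ttyh2 was at 11.9 CPM in neurons and 29.96 CPM in NPCs (2.52-fold higher in NPCs, 2.19 to 2.90), and its interval overlapped that of Ttyh1. Ttyh3 was at 650.9 CPM in neurons and 658.5 CPM in NPCs, a ratio of 1.01 toward NPCs whose interval (0.990 to 1.03) included equality. Prom2, the relative of Prom1, had 5 reads in neurons and 6 in NPCs.

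The ligands and partners of Ptprz1 and tenascin C went both ways. Of 12 genes 10 passed the filter, 1 reaching 2-fold toward NPCs and 1 toward neurons on the log2 ratio scale, with 1 CPM added (median log2 ratio -0.15). The folds that follow are plain ratios, on which Alk, with a log2 ratio of -0.92, also passes 2-fold. Mdk, which encodes the growth factor midkine, a ligand of Ptprz1, was at 83.2 CPM in neurons and 176.4 CPM in NPCs (2.12-fold higher in NPCs, 2.01 to 2.24). Ptn, the gene of the related ligand pleiotrophin, named after its value was seen, was at 190.2 CPM in neurons and 202.8 CPM in NPCs (1.07-fold higher in NPCs, 1.02 to 1.11). Tnr, a tenascin relative of Tnc, was at 30.9 CPM in neurons and 11.9 CPM in NPCs (2.58-fold higher in neurons, 2.26 to 2.96). Tnc was 3.77-fold higher in NPCs, so the tenascin genes differed in direction. Alk, a receptor for midkine and pleiotrophin, and Ptprg, the closest relative of Ptprz1, were higher in NPCs by 2.09-fold (1.66 to 2.66) and by 1.47-fold (1.38 to 1.57).

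Among 9 integrin genes and Mfge8 relatives, 8 passed the filter, 2 of them 2-fold or more toward NPCs and 0 toward neurons (median log2 ratio -0.31). This median moved with the filter, and was -1.07 with a minimum of 10 CPM and -0.13 with no filter. Itgav, the alpha-v subunit through which Mfge8 is bound, was at 11.1 CPM in neurons and 37.9 CPM in NPCs (3.40-fold higher in NPCs, 2.96 to 3.92). Its partner Itgb8 was at 8.60 CPM in neurons and 28.8 CPM in NPCs (3.34-fold, 2.86 to 3.93). Itgb1, the common beta subunit, was 1.43-fold higher in NPCs (1.38 to 1.49). The beta subunit genes Itgb5 and Itgb3 were named after their values were seen. Itgb5 was 1.11-fold higher in NPCs, with an interval that included equality (0.908 to 1.35). Itgb3 had 24 reads in neurons and 29 in NPCs. Edil3, a secreted relative of Mfge8, was at 110.3 CPM in neurons and 55.9 CPM in NPCs (1.97-fold higher in neurons, 1.85 to 2.11), against 4.50-fold higher in NPCs for Mfge8 itself.

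The endothelin ligands were near silence. Edn1, Edn2 and Edn3 had 1, 2 and 0 reads in neurons and 2, 6 and 2 reads in NPCs, and 3 reads correspond to 0.132 CPM in neurons and 0.111 CPM in NPCs. Ednra, the other endothelin receptor, had 6 reads (0.264 CPM) in neurons and 326 reads (12.1 CPM) in NPCs, 45.8-fold higher in NPCs (20.9 to 126.0). The converting enzymes Ece1 and Ece2 were higher in NPCs by 1.32-fold (1.16 to 1.52) and by 1.04-fold (0.904 to 1.19), and the interval of Ece2 included equality. Ednra is also a gene of vascular mural cells, and markers of pericytes and smooth muscle moved with it and with Ednrb and Mfge8. Their 8 genes summed to 12.03 CPM in neurons and 225.4 CPM in NPCs, 7 of them at least 2-fold higher in NPCs and none at 0 in either library. Abcc9 and Pdgfrb, the highest in NPCs, were at 2.81 and 2.33 CPM in neurons, and at 61.5 and 54.0 CPM in NPCs. The part of these cells in the values of Ednra and of the members was not tested.

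Around Ddah1, 10 genes of methylarginine and nitric oxide signalling were listed, and 9 were found, all but Prmt1. Of these 7 passed the filter, 6 of them toward neurons by any amount, beside 49.3% of all tested genes, and 1 reached 2-fold there (median log2 ratio 0.13). The ratio of Prmt6, named after its value was seen, was 1.02 toward neurons, with an interval that included equality. Nos1, the neuronal nitric oxide synthase, was at 89.1 CPM in neurons and 42.3 CPM in NPCs (2.11-fold higher in neurons, 1.96 to 2.27). Gucy1a3 and Gucy1b3, subunits of the soluble guanylate cyclase that senses nitric oxide, were higher in neurons by 1.52-fold (1.40 to 1.64) and by 1.37-fold (1.21 to 1.54). Nos3, the endothelial enzyme, had 16 reads in neurons and 31 in NPCs. Ddah2, the relative of Ddah1, named after its value was seen, was at 278.5 CPM in neurons and 261.3 CPM in NPCs (1.07-fold higher in neurons, 1.03 to 1.10).

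Most other genes of radial glia were also higher in NPCs. The first list below includes Nes, the gene of a sorting reporter. Of 15 further radial glia genes that are not transcription factors, 14 were higher in NPCs by any amount, beside 50.7% of all tested genes, and 11 reached 2-fold toward NPCs and 0 toward neurons (median log2 ratio -1.28). Mlc1, Gja1 and Aldoc, for a glial membrane protein, a gap junction protein and a glycolytic aldolase, were higher in NPCs by 4.75-fold (3.89 to 5.86), by 3.90-fold (3.30 to 4.64) and by 3.64-fold (3.35 to 3.95). Of 18 radial glia transcription factor genes, 16 were higher in NPCs by any amount and 11 reached 2-fold toward NPCs and 0 toward neurons (median -1.30). Hes1, a Notch target, was at 1.80 CPM in neurons and 10.8 CPM in NPCs, and Sox3, Sox9 and Pax6 were higher there by 4.03-fold, 3.72-fold and 3.38-fold. The exceptions, named after their values were seen, were Nfix (1.32-fold higher in neurons, 1.29 to 1.36), Nfib (1.23-fold, 1.21 to 1.24) and the glutamine synthetase gene Glul, whose ratio of 1.02 toward neurons had an interval that included equality (0.966 to 1.07). Whether the members differ from these lists was not tested.

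Genes described in basal radial glia of primates were mixed and mostly low. Of 11 such genes 9 passed the filter, 3 of them 2-fold or more toward NPCs and 0 toward neurons (median log2 ratio -0.58). Sfrp2, a secreted Wnt modulator, was at 11.5 CPM in neurons and 32.0 CPM in NPCs (2.78-fold higher in NPCs, 2.42 to 3.21). Palld, an actin-binding protein, was 2.56-fold higher in NPCs (2.16 to 3.03). Moxd1 had 2 reads in neurons and 41 in NPCs (17.2-fold higher in NPCs, 4.50 to 147.8), and the small heat shock gene Cryab 26 reads in neurons and 9 in NPCs (3.42-fold higher in neurons, 1.55 to 8.30). Cryab stays within 2-fold on the log2 ratio scale (0.68) through the added 1 CPM. By any amount 6 of the 9 genes were higher in NPCs and 3 in neurons, beside 50.7% and 49.3% of all tested genes. Lifr and Lgals3bp, named after their values were seen, were the others toward neurons. Lifr was 1.51-fold higher there (1.33 to 1.71), from 579 reads in neurons and 455 in NPCs. Lgals3bp was 1.54-fold higher (1.02 to 2.35), from 56 reads in neurons and 43 in NPCs. The members associated with basal radial glia in human cortex, Hopx, Tnc and Ptprz1, were themselves spread from 3.77-fold higher in NPCs to 1.47-fold higher in neurons.

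**Figure D5:**
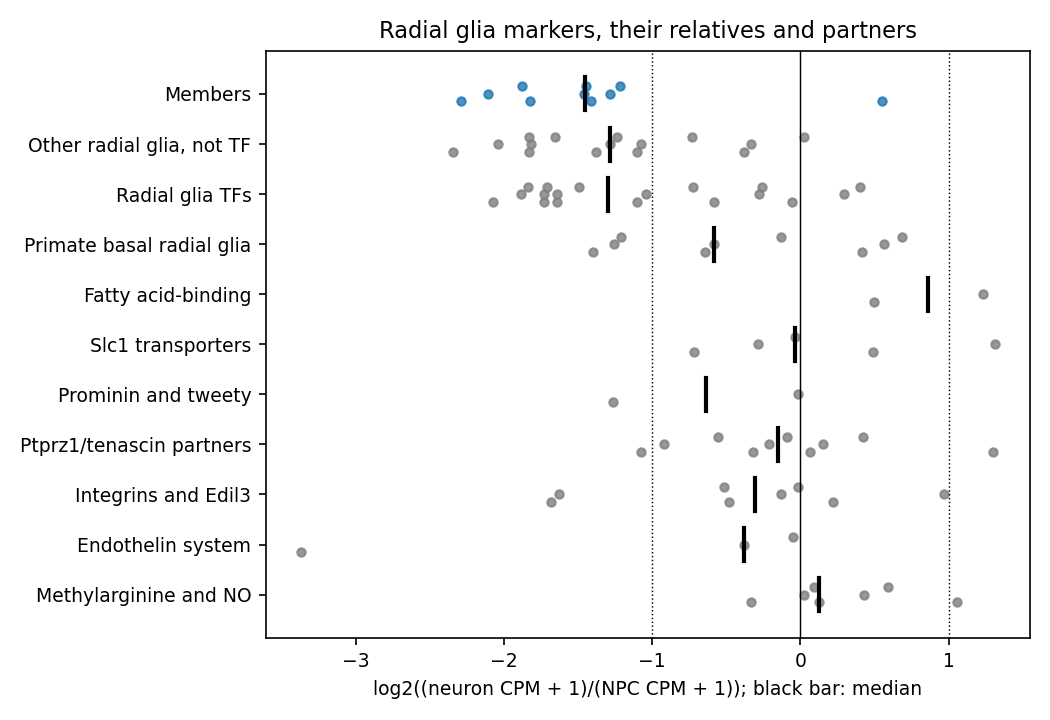
Log2 ratios of the genes that passed the filter in each list, with the 10 markers in blue, genes of the other lists in gray and a black bar at each median. The medians are -1.46 for the markers, -1.28 and -1.30 for the other radial glia lists, and from -0.64 to 0.86 for the lists of primate basal radial glia genes, relatives and partners.

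Both libraries held markers of further cell types. The oligodendrocyte lineage list, whose cells make Ptprz1 and Fabp7, summed to 4.13 CPM in neurons and 86.1 CPM in NPCs, with 7 of 7 genes at least 2-fold higher in NPCs. Cspg4 (1.01 CPM in neurons and 31.2 CPM in NPCs), which is also counted in the pericyte list, and Pdgfra (0.703 CPM in neurons and 25.3 CPM in NPCs) were its highest genes in NPCs. Endothelial markers summed to 3.12 CPM in neurons and 20.4 CPM in NPCs, led in NPCs by Kdr and Esam. Of 8 genes 7 passed the filter, 6 of them at least 2-fold higher in NPCs on the log2 ratio scale. The others, Tek and Emcn, were named after their values were seen. By the plain ratio Tek was 3.71-fold higher in NPCs (1.84 to 8.28). Emcn, below the filter, had 1 read in neurons and 19 in NPCs. Meningeal fibroblast markers, led by Col3a1 and Col1a2, summed to 1.93 CPM in neurons and 25.6 CPM in NPCs. Intermediate progenitor markers, led in NPCs by Eomes and Neurog2, summed to 903.1 CPM in neurons and 2208 CPM in NPCs. Markers of microglia, led by Csf1r and Cx3cr1, summed to 137.8 CPM in neurons and 32.0 CPM in NPCs. Those of Cajal-Retzius cells, led in neurons by Reln and Trp73, summed to 469.7 CPM in neurons and 101.4 CPM in NPCs. No gene of these 6 lists was at 0 in either library. Astrocyte markers, led by Slc1a2 and Gja1, summed to 39.5 CPM in neurons and 78.4 CPM in NPCs, with Gfap at 3 reads in neurons and 13 in NPCs. Markers of GABAergic interneurons, led by Dlx1 and Lhx6, summed to 220.0 CPM in neurons and 305.2 CPM in NPCs. The sums of the neuron list (8683 CPM in neurons and 5833 CPM in NPCs) and of the radial glia list (1055 CPM in neurons and 2567 CPM in NPCs, 3 of its 14 genes being members) moved with the labels. These lists include the reporter genes Dcx and Nes, in that order. Of the 6 neuron markers, 5 were higher in neurons (49.3% of all tested genes) and 1 reached 2-fold there (3.85% of all tested genes). Rbfox3, named after its value was seen, was 1.08-fold higher in NPCs (1.02 to 1.14). The sums of red blood cell markers (140.7 CPM in neurons and 151.2 CPM in NPCs) and of ependymal markers (35.9 CPM in neurons and 33.1 CPM in NPCs) differed little. Hba-a1 and Hba-a2, both in the red blood cell sum, held the same values in each library (1296 reads in neurons and 1638 in NPCs). The ependymal sum was mostly Ccdc39 (32.2 CPM in neurons and 27.8 CPM in NPCs), while Foxj1 was 1.43-fold higher in NPCs (1.09 to 1.89). Tmem212 had 0 reads in both libraries, and Rsph1 had 0 in neurons and 1 in NPCs. Choroid plexus markers were near 0, with Ttr at 0 reads in neurons and 15 in NPCs. The part of any of these cells in the members' values was not tested.

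Some member values carry a limit of annotation. In GENCODE M21 exons of an antisense gene overlap those of Prom1 (385 bases), Hopx (412 bases) and Ttyh1 (244 bases). Whether the counting used strand is not given in the sources used here, and if it did not, reads of these pairs cannot be told apart.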

How the data were processed

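The members, gene lists and tests were chosen with earlier results of these data known. RNA of sorted cells was sequenced after TruSeq library preparation, per the labels' protocols. Mouse build mm9 and the tools edgeR, SAMtools 0.1.18, TopHat 1.2.0 and CASAVA 1.9 appear in the submitters' processing notes, with no role or order. The deposited values are a signal by the authors that is not whole, but in each library nearly whole multiples of 1 step (1.13 in neurons, 0.953 in NPCs), the form of rescaled counts. Division by the step gave whole reads within 0.05 for 100% of values in both libraries. The unit differed from the counts assumed in planning. Both libraries were divided by 1 constant (25698104) to give CPM, and values under 0.01 were taken as 0. Genes that reached 1 CPM in either library were compared, with 1 CPM added before the log2. A count test across genes was not run, since 1 library per group leaves no residual freedom. Calculations were tested on simulated data.

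Besides the members, 10 lists of relatives, partners and radial glia genes and 14 lists of cell type markers were fixed, with 187 genes in all. Of these, 3 were found under older symbols through the RefSeq table of GRCm38.p6 and 1, Prmt1, was not matched to a single listed symbol. Named are all members, Nes and Dcx, up to 4 genes of each list with the most extreme log2 ratios, up to 2 most abundant markers per cell type, and the 3 genes nearest to the extreme members, where symbols of predicted, Riken, LOC and small RNA genes were left out. Others are named with a statement, and some genes that this rule names are not reported here. A few genes stand in 2 lists. Alternatives were other added values, filters, scalings and a 1.5-fold limit. Tools were Python 3.11.15, scipy 1.17.1, and R 4.3.3 with edgeR 4.0.16 and DESeq2 1.42.0 for scaling factors only.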

Additional observations from a re-analysis of the deposited data

How the results depend on the processing

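Every member that passed the filter kept its direction under every alternative run, and Hopx does not pass a minimum of 10 CPM. Ptprz1 lay toward neurons throughout, with a log2 ratio between 0.49 (scaled by total reads) and 0.56. The members' median lay between -1.52 and -1.41. The lowest was Ednrb, from -2.35 to -1.97. The count of members at least 2-fold higher in NPCs was 8 with 5 CPM added or a minimum of 10 CPM, through Hopx, and 9 otherwise. Over all genes, the 854 at least 2-fold higher in NPCs became 399 with 5 CPM added and 548 with a minimum of 10 CPM, and the 489 higher in neurons became 238 with 5 CPM added; fewer genes are tested under the higher minimum. The ependymal marker median, -0.11 as reported, was 0.21 with a minimum of 10 CPM, which leaves 1 gene. Of the list medians under alternatives, 36 moved beyond the members' typical counting interval, mostly with 5 CPM added or another filter. Some printed list medians besides the ependymal one moved by over 1.5 times. That of the integrin list was -0.19 with 5 CPM added, beside the values given there. That of the Slc1 family was -0.16 with a minimum of 10 CPM and -0.10 scaled by total reads. For the Ptprz1 and tenascin partners the median was -0.092 with a minimum of 10 CPM. For primate basal radial glia genes it was -0.36 with 5 CPM added. The methylarginine median was 0.28 with a minimum of 10 CPM and 0.059 scaled by total reads. The median of prominin and tweety relatives was -0.017 with no filter. That of fatty acid-binding proteins was 0.56 with 5 CPM added, 0.50 with a minimum of 10 CPM and 0 with no filter. Over all tested genes the median, -0.0049 as reported, was -0.069 scaled by total reads and 0.0035 with a minimum of 10 CPM. Depth limits Hopx most, at 38 and 148 reads in neurons and NPCs. No paired analysis was possible because each group has 1 library, and no replicate could be left out.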
